A study of Homo sapiens with 6 samples.

Results

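The 9 genes SNAI1, SNAI2, ZEB1, ZEB2, TWIST1, VIM, EPCAM, TGFB1 and TGFB2, which drive or mark the epithelial-mesenchymal transition, were followed in A549 cells after over-expression of CELF6. Their rows were found by symbol in the deposited tables, and the set was put together with earlier results of these data known. Each symbol belonged to 1 gene ID, so that 9 of the 29889 genes in the count table were described. All 9 also passed the filter on low counts, which kept 15847 genes for the test. A549, a line of human lung adenocarcinoma cells, was transfected with a plasmid that carries CELF6 (CELF6-OE) or, according to the methods, with the empty plasmid (Control). RNA was harvested 48 h after lipofection, polyadenylated RNA was sequenced, and each group had 3 biological replicates, 6 libraries in all. The transfection was transient and no sorting of transfected cells was stated, so each library averages over all cells of a culture. In such bulk RNA, fewer cells that express a gene and less of its RNA per cell cannot be told apart.

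In the epithelial-mesenchymal transition, cells that are joined by E-cadherin junctions lose these junctions and gain the shape and motility of mesenchymal cells. The transcription factors of the SNAI, ZEB and TWIST families bind short DNA words called E-boxes and repress epithelial genes. Transforming growth factor beta, encoded by TGFB1 and TGFB2 among other genes, is an extracellular ligand that induces several of these factors through its receptors and SMAD proteins. VIM encodes vimentin, the intermediate filament protein of mesenchymal cells, and EPCAM encodes an adhesion protein of epithelial cells. A549 cells are known as a line in which TGF-beta readily induces the transition.

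The total count on genes was between 33748328 and 37920700 per library. CELF6 itself had 18646, 20789 and 11571 counts in replicates 1 to 3 of CELF6-OE and 0 in each Control library, where a count of 0 allows up to 3 counts. Replicate 3 had 61% of the mean CELF6 FPKM of replicates 1 and 2. All 10 genes fixed as markers for the A549 line were present, with a summed level of 19645 to 23317 CPM (counts scaled to library size) with CELF6 and 25467 to 26852 without. The 8 fibroblast markers analysed summed to between 4.39 and 5.96 CPM, the 4 endothelial markers to at most 0.511 CPM and the 5 leukocyte markers to at most 11.4 CPM. The leukocyte sum came mostly from CD14, while PTPRC, the pan-leukocyte marker, was listed at an FPKM of 0.01 or less in every library. Of the 10 A549 markers, CDH1, KRT8, KRT18, KRT19 and AKR1C2 were lower in CELF6-OE by the test described in the next paragraph, which called 11.5% of all genes as lower. These 5 calls were 2 without CELF6-OE replicate 2 or without Control replicate 2, and 3 without CELF6-OE replicate 1 or with upper quartile scaling. Also lower were the leukocyte marker ITGAM and the endothelial marker PECAM1 (mean of 9 counts), which passed the filter on low counts only through the Control libraries. The part of these markers in the results below was not tested.

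None of the 9 genes passed the test between CELF6-OE and Control. At an adjusted p under 0.05 in edgeR's quasi-likelihood test, 18.0% of all genes tested were called, 6.47% as higher and 11.5% as lower in CELF6-OE, and 0 of the 9 regulators were. A rule given in the study, a p under 0.01 with a fold change of at least 1.5, called 7.27% of all genes (1.36% as higher and 5.91% as lower) and again 0 of the 9. A second rule of the study joins that fold change to the adjusted p, and cannot call a gene that fails the adjusted p alone. Only SNAI2 had an unadjusted p under 0.05. DESeq2 and limma-voom also called 0 of the 9, whereas edgeR's likelihood ratio test, and the quasi-likelihood test without a filter on low counts, each called SNAI2 as higher. Fitted differences were above 0 for 5 genes and below 0 for 4. Their median log2 fold change was 0.016, against 0.011 over all genes tested. For 5 genes (VIM, TGFB1, TGFB2, SNAI1 and ZEB1) the 95% interval of the difference lay within 1.5-fold in both directions. For the other 4 (SNAI2, ZEB2, TWIST1 and EPCAM), the interval reached past a change of that size in at least 1 direction.

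**Figure D1:**
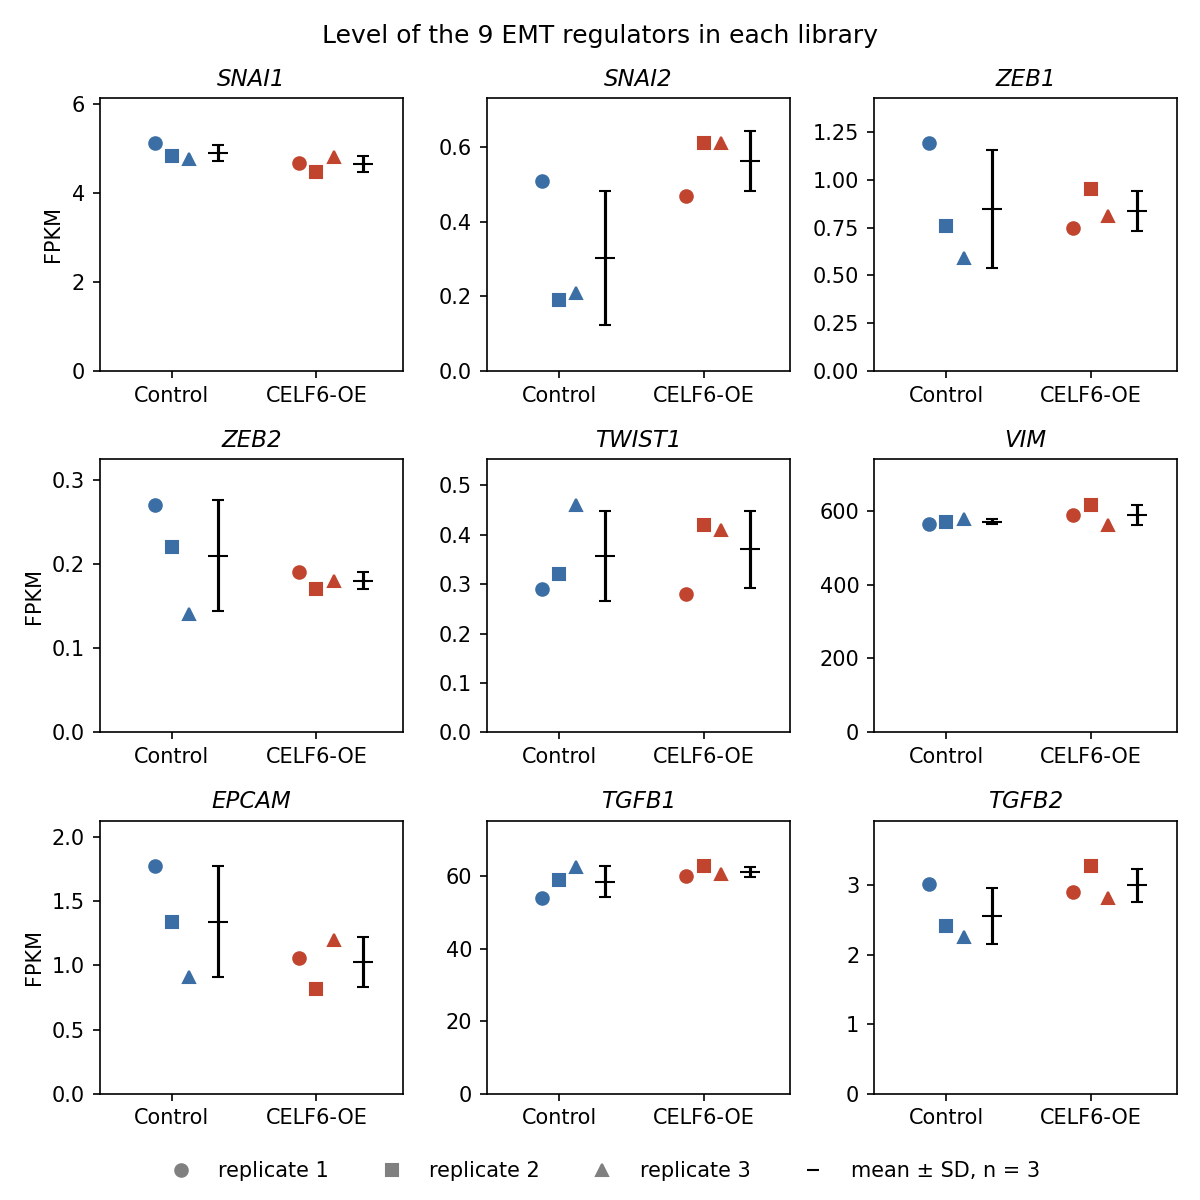
FPKM of each of the 9 genes (vertical axes, each from 0) in the 3 Control libraries (blue) and the 3 CELF6-OE libraries (red). Symbols give the replicate number, and black bars give the mean ± SD (n = 3). The FPKM of the groups overlapped for each of the 9 genes.

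The levels of the 9 genes spanned a wide range, and FPKM, which scales by transcript length, allowed them to be compared. VIM was by far the most abundant, with a mean of 579 FPKM over the 6 libraries, above 99.2% of the genes tested. TGFB1 followed at 59.8 FPKM, above 93.2% of them. SNAI1 had a mean of 4.78 FPKM, TGFB2 of 2.78, EPCAM of 1.18, ZEB1 of 0.84, SNAI2 of 0.43, TWIST1 of 0.36 and ZEB2 of 0.20. The ranges of neighbours in this order did not overlap from VIM down to EPCAM, nor between TWIST1 and ZEB2. EPCAM and ZEB1, ZEB1 and SNAI2, and SNAI2 and TWIST1 had overlapping ranges. So did SNAI2 and ZEB2, which are not neighbours in this order. The mesenchymal filament gene thus stood at 318 to 750.4 times the FPKM of the epithelial adhesion gene EPCAM, and this ratio overlapped between the groups.

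Of the transcription factors, SNAI1 encodes Snail, a zinc finger repressor that binds the E-boxes of the E-cadherin gene. The gene (ENSG00000124216) lies on the plus strand of chromosome 20 from 49982980 to 49988886 (GRCh38, GENCODE v44). CELF6-OE replicates 1 to 3 held 286, 279 and 287 counts, and Control replicates 1 to 3 held 327, 322 and 318. In FPKM this was 4.67, 4.47 and 4.82 against 5.12, 4.84 and 4.78. In CPM scaled by TMM factors SNAI1 was lower in each CELF6-OE library than in any Control library. The groups did not overlap in this way for 37.9% of all genes tested, 17.9% as higher and 20.0% as lower. In FPKM, however, CELF6-OE replicate 3 lay above Control replicate 3. The log2 fold change was -0.11 (standard error 0.097, 95% interval -0.32 to 0.10; edgeR adjusted p = 0.468). SNAI1 varied little between replicates, with a coefficient of variation of 4.45% in CELF6-OE and 0.97% in Control, below the 5.93% and 5.57% that counting alone gives on average.

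SNAI2 encodes Slug, the close relative of Snail, and lies on the minus strand of chromosome 8 from 48917598 to 48921740. By replicate, the counts were 39, 52 and 49 with CELF6 and 44, 17 and 19 without. Control replicate 1 lay among the CELF6-OE libraries, and Control replicates 2 and 3 had fewer than 20 counts. The mean FPKM was 0.56 ± 0.081 in CELF6-OE and 0.30 ± 0.18 in Control (SD, n = 3 each; two-sided exact permutation test, p = 0.2, where this design cannot go below 0.1). The log2 fold change was 0.88 (standard error 0.33, 95% interval 0.16 to 1.59), the largest of the 9 in size, with a p of 0.0207 and an edgeR adjusted p of 0.0864. Without Control replicate 1 the log2 fold change was 1.43 with an adjusted p of 0.00235, with edgeR's likelihood ratio test the adjusted p was 0.0409, and without a filter on low counts it was 0.00719. Over all 19 alternatives it ranged from 0.00235 to 0.273, with a value above 0 in each. The ratio of SNAI1 to SNAI2 in FPKM was 9.94, 7.33 and 7.90 in CELF6-OE and 10.0, 25.5 and 22.8 in Control. The lowest Control ratio, that of replicate 1, lay close to the highest CELF6-OE ratio.

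ZEB1 and ZEB2 encode large zinc finger homeobox proteins that repress epithelial genes and are themselves held down by microRNAs of the miR-200 family. ZEB1 lies on the plus strand of chromosome 10 from 31318495 to 31529814. CELF6-OE replicates 1 to 3 held 175, 227 and 184 counts, and Control replicates 1 to 3 held 290, 192 and 150, so the Control libraries lay on both sides of the CELF6-OE libraries. The coefficient of variation of ZEB1 in CPM was 33.6% in Control, against 6.89% from counting alone and 11.5% in CELF6-OE. For ZEB1 the log2 fold change was -0.036 (standard error 0.20, 95% interval -0.48 to 0.41; edgeR adjusted p = 0.919). The sign of this value turned when a single library was left out, with -0.22 without Control replicate 3 and 0.25 without Control replicate 1.

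ZEB2, on the minus strand of chromosome 2 from 144364364 to 144521057, had the lowest mean FPKM of the 9. In Control replicate 2, however, SNAI2 lay below it (0.19 against 0.22 FPKM). By replicate, the counts of ZEB2 were 85, 78 and 80 with CELF6 and 128, 109 and 67 without, again with Control on both sides. For ZEB2 the log2 fold change was -0.25 (standard error 0.21, 95% interval -0.72 to 0.22; edgeR adjusted p = 0.453). The FPKM of ZEB1 was 3.45 to 5.59 times that of ZEB2 over the 6 libraries, and the groups overlapped in this ratio.

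SNAI and ZEB proteins recognise the E-box CACCTG, which reads CAGGTG on the other strand. RefSeq promoter windows of 300 bases (GRCh38.p14), from 250 bases before to 50 after a start site, matched 5 of the 9 genes, namely ZEB1, ZEB2, VIM, TGFB1 and TGFB2. The word, searched on both strands, was found in 2 of their 11 windows, both of ZEB1, and in 20.6% of the 35116 windows of all genes. A match is a description of the letters and no measured site. The 4 matches of ZEB1 are shown because they place the word bound by the SNAI and ZEB proteins beside start sites of a gene of the same family. They are given 5′ to 3′ on the plus strand with the word in capitals.
ZEB1 at chr10:31318350-31318375: gaggtgacagCAGGTGagggccgggt
ZEB1 at chr10:31318966-31318989: ccccaccaCACCTGaggaaaactt
ZEB1 at chr10:31319121-31319146: tgtcgtaaacCAGGTGcggtggggag
ZEB1 at chr10:31319239-31319264: cggatggcccCAGGTGtaagcgcaga
The first lies 57 bases before its start site, the next 242 and 85 bases before another, and the last 33 bases after that same site.

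TWIST1 encodes a basic helix-loop-helix factor that binds E-boxes as a dimer with the E proteins TCF3, TCF4 and TCF12. The gene lies on the minus strand of chromosome 7 from 19020991 to 19117636. It had the fewest counts of the 9, with 17, 26 and 24 in the CELF6-OE libraries and 18, 21 and 30 in the Control libraries. Its log2 fold change was 0.029 (standard error 0.29), and the 95% interval from -0.61 to 0.67 was nearly as wide as that of SNAI2. Its coefficient of variation of 20.2% in CELF6-OE lay close to the 21.2% that counting alone gives, and in Control it was 28.2% against 20.9%. The edgeR adjusted p of TWIST1 was 0.955.

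Of the 2 state markers, VIM lies on the plus strand of chromosome 10 from 17228241 to 17237593. CELF6-OE replicates 1 to 3 held 45554, 48706 and 42412 counts, and Control replicates 1 to 3 held 45608, 47875 and 48630. In FPKM, which accounts for depth, VIM was 588 ± 26.5 in CELF6-OE and 569.8 ± 6.86 in Control (SD, n = 3 each), with overlapping groups. The log2 fold change was 0.016 (standard error 0.064), and its 95% interval from -0.13 to 0.16 was the narrowest of the 9. This interval corresponds to a change between -8.33% and 11.5%. For VIM the edgeR adjusted p was 0.889.

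EPCAM lies on the plus strand of chromosome 2 from 47345158 to 47387601. By replicate, the counts were 77, 61 and 85 with CELF6 and 135, 106 and 72 without. Control replicate 3 lay between CELF6-OE replicates 2 and 1, whereas Control replicates 1 and 2 lay above every CELF6-OE library. For EPCAM the log2 fold change was -0.41 (standard error 0.23, 95% interval -0.92 to 0.094; edgeR adjusted p = 0.240). Without Control replicate 3 it was -0.61 with an adjusted p of 0.0435, and without Control replicate 1 it was -0.19 with 0.549, the lowest and highest adjusted p over the 19 alternatives.

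The ligand gene TGFB1 lies on the minus strand of chromosome 19 from 41301587 to 41353922. CELF6-OE replicates 1 to 3 held 6042, 6438 and 5923 counts, and Control replicates 1 to 3 held 5665, 6439 and 6826. The mean FPKM was 61.1 ± 1.40 in CELF6-OE and 58.5 ± 4.27 in Control (SD, n = 3 each), and the 3 CELF6-OE values lay inside the Control range but for 1 library. For TGFB1 the log2 fold change was 0.032 (standard error 0.075, 95% interval -0.13 to 0.20; edgeR adjusted p = 0.804).

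TGFB2, on the plus strand of chromosome 1 from 218345336 to 218444619, encodes a second ligand of the same receptors. By replicate, the counts were 534, 613 and 502 with CELF6 and 579, 480 and 450 without. As for SNAI2, Control replicate 1 lay within the CELF6-OE range in CPM and the other Control libraries below it. For TGFB2 the log2 fold change was 0.20 (standard error 0.11, 95% interval -0.038 to 0.44; edgeR adjusted p = 0.226). Without Control replicate 1 it was 0.30 with an adjusted p of 0.0309, and over the 19 alternatives the adjusted p reached 0.538. The FPKM of TGFB1 was 19.2 to 21.6 times that of TGFB2 with CELF6 and 17.9 to 27.7 times without.

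**Figure D2:**
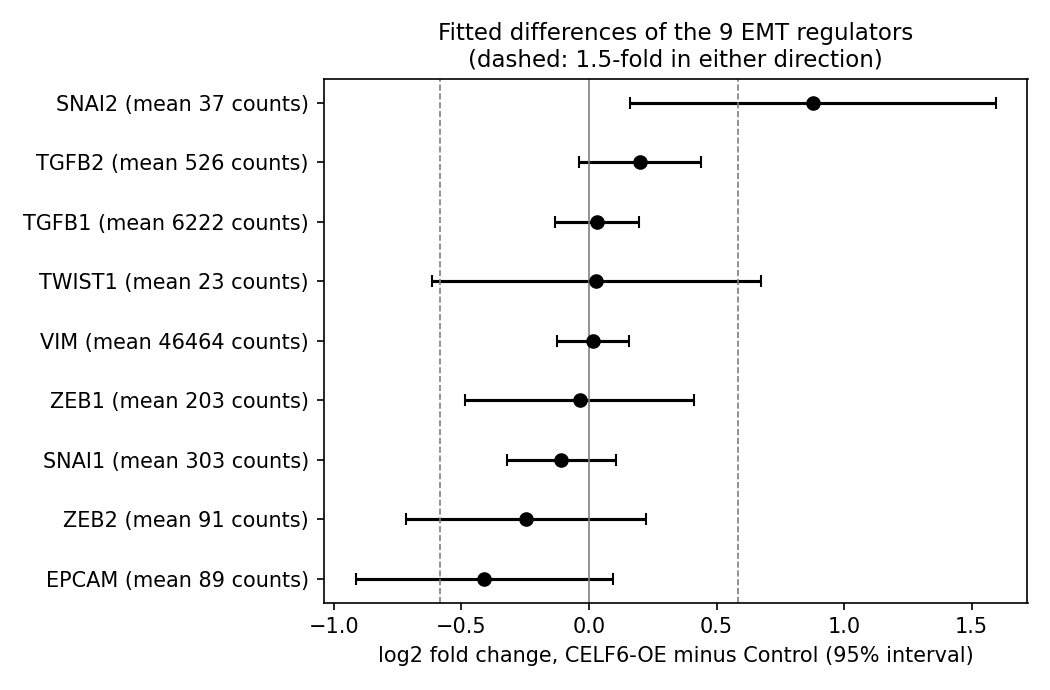
Fitted log2 fold change (horizontal axis, CELF6-OE minus Control) of each of the 9 genes with its 95% interval, beside the gene's mean count over the 6 libraries. Dashed lines mark 1.5-fold in either direction. The interval of VIM, with a mean of 46464 counts, is the narrowest, and SNAI2, with a mean of 37 counts, has the widest.

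In CPM, the Control coefficient of variation was larger than that of CELF6-OE for 7 of the 9 genes, as for 63.4% of all genes tested. Over all genes, Control replicates 1 and 3 also differed most, with a chi-square per degree of freedom of 29.3 between them and of 7.67 to 11.7 for the other pairs within a group. In Control, the coefficient of variation was 56.0% for SNAI2, 33.6% for ZEB1, 30.1% for ZEB2 and 29.6% for EPCAM, against 13.7%, 11.5%, 6.32% and 19.2% in CELF6-OE. Control replicate 1 had the highest CPM of the Control libraries for 6 of the 9 (SNAI1, SNAI2, ZEB1, ZEB2, EPCAM and TGFB2), as for 38.5% of all genes tested. Control replicate 3 was highest for the other 3, and Control replicate 2 for none. Epithelial EPCAM and the repressors ZEB1 and ZEB2 thus had their Control maximum in the same library.

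**Figure D3:**
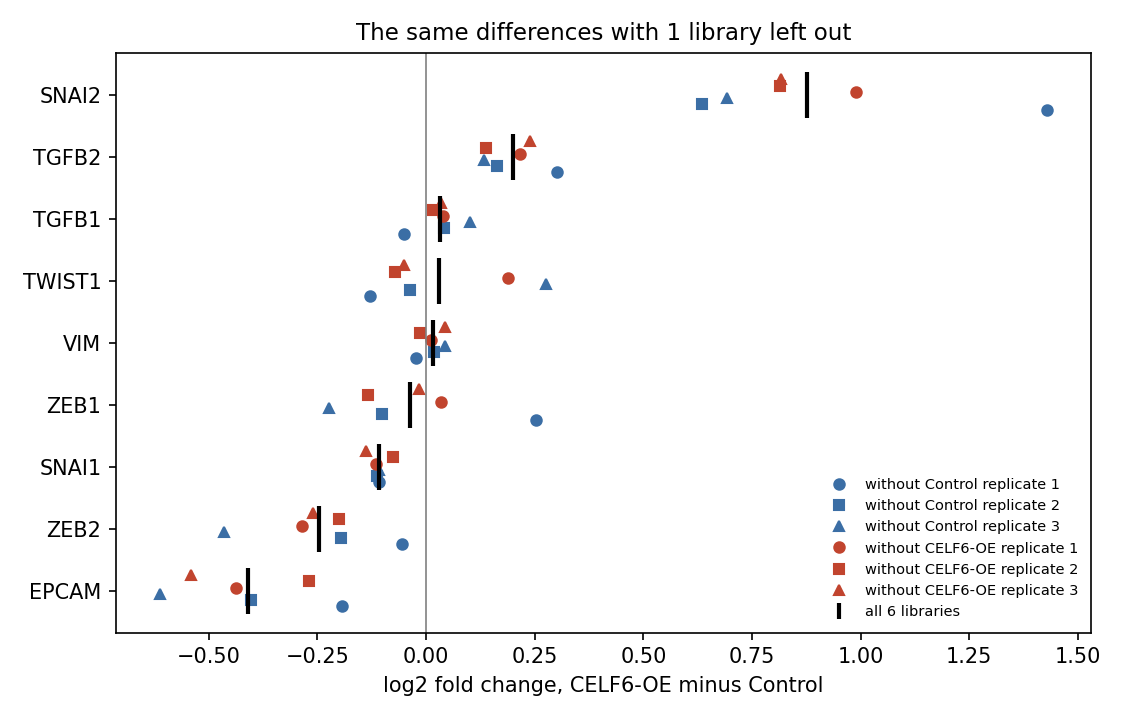
Log2 fold change (horizontal axis, CELF6-OE minus Control) of the 9 genes with all 6 libraries (black bar) and with each library left out in turn (blue for Control, red for CELF6-OE, symbol by replicate number). Leaving out Control replicate 1 moved SNAI2 to 1.43 and ZEB1 to 0.25, and with a CELF6-OE library left out the highest value of ZEB1 was 0.034.

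Genes that share exon bases with the 9 loci were followed as well, since the libraries were stranded but the strand setting of the counting was not given in the sources used here. Without strand, reads of a gene and of its antisense partner cannot be told apart. VIM-AS1, an antisense RNA that shares 656 exon bases with VIM, ranged from 82 to 106 counts with CELF6 and from 68 to 78 without, a difference of 0.40 on the log2 scale (edgeR adjusted p = 0.0997). ZEB1-AS1, with 396 shared exon bases, had 71 to 109 counts and an adjusted p of 0.271. TGFB2-AS1, with 701 shared exon bases, had 17 to 24 counts with CELF6 and 5 to 14 without. The difference was 1.04 on the log2 scale (edgeR adjusted p = 0.0741), and the gene passed the filter on low counts only through CELF6-OE. ZEB2-AS1 had at most 2 counts in any library. Another antisense RNA of VIM (ENSG00000234961, 619 shared exon bases) had 29 to 45 counts and an adjusted p of 0.181. HNRNPUL1, an RNA-binding protein gene on the opposite strand that shares 215 exon bases with TGFB1, had 13966 to 15569 counts with CELF6 and 12408 to 13600 without. It was higher by 0.24 on the log2 scale (edgeR adjusted p = 0.0258), the 1 call among the 5 such genes tested. Of all genes tested, 6.47% were called as higher. All 5 overlapping genes had a fitted difference above 0, where the median log2 fold change over all genes tested was 0.011. Their part in the counts of the genes they overlap was not tested. The neighbours TMEM91 and B9D2, which share no exon bases with TGFB1, were not called.

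Beyond the 9, lists of EMT and TGF-beta genes showed where calls did occur. Among 32 epithelial markers tested, 13 were lower in CELF6-OE and 0 higher, against 11.5% and 6.47% of all genes, and the median log2 fold change of the list was -0.27. Among 23 mesenchymal markers tested, 4 were lower and 0 higher, with a median of -0.074. The 13 epithelial calls were 7 without CELF6-OE replicate 2 and 8 without Control replicate 2, and between 10 and 15 under the other alternatives. Of the 13, SPINT1 and ST14 passed the filter on low counts only through the Control libraries, which favours a call as lower. With a filter of 1 CPM in 3 libraries, 11 of 28 epithelial markers were lower. The lists were written with earlier results of these data known.

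The epithelial gene with the smallest p was CDH1, which encodes E-cadherin, the junction protein whose gene SNAI and ZEB proteins are known to repress. The FPKM of CDH1 in replicates 1 to 3 was 2.98, 2.80 and 4.95 with CELF6 and 10.6, 11.2 and 10.5 without. Its highest CELF6-OE value was in replicate 3, the library with the least CELF6. Not every called gene of the list had its highest CELF6-OE value there, and a relation to the level of CELF6 was not tested. For CDH1 the log2 fold change was -1.62 (standard error 0.17), with an edgeR adjusted p of 0.000105. CLDN4, which encodes a tight junction claudin, fell by 1.52 on the log2 scale, and LSR, which encodes a protein of tricellular junctions, fell by 0.71. The keratin genes KRT8, KRT18 and KRT19 fell by 0.47, 0.36 and 0.22, while KRT7, another keratin of simple epithelia, had a log2 fold change of -0.086 and an adjusted p of 0.577. The other members of the list called as lower were TJP3, CGN, JUP, SPINT1, ELF3, F11R and ST14, whose names are given after their values were seen, as are KRT7, CDH2 and SMAD3.

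RefSeq promoter windows were matched for 8 of these 13 genes. None was matched for CDH1, KRT18, KRT19, F11R or ST14, whose promoters were therefore not searched. The E-box word stood in 4 of the 11 windows matched, against the 20.6% of all windows given above. Epithelial markers that were not called were not searched, and with so few windows nothing is read from the difference. The 5 matches are shown for comparison with those of ZEB1, on the strand of the gene and with the word in capitals. The printed stretches of the JUP pair overlap, while their words do not.
TJP3 at chr19:3721720-3721745, plus strand: ggaagaggggCAGGTGcagccgggag
JUP at chr17:41786015-41786040, minus strand: actctggcccCACCTGccgagcaggt
JUP at chr17:41786004-41786029, minus strand: acctgccgagCAGGTGagcgcacgga
SPINT1 at chr15:40844441-40844466, plus strand: ccgggctgatCAGGTGtgtctcctcc
ELF3 at chr1:202010457-202010482, plus strand: atatgcaaatCACCTGgggccaggag
TJP3, which encodes a scaffold protein of tight junctions, had an FPKM of 1.15, 0.72 and 1.25 with CELF6 and 3.02, 2.16 and 1.98 without. JUP, which encodes plakoglobin of desmosomes and adherens junctions, had 28.1, 23.1 and 29.1 against 35.6, 36.6 and 35.1 FPKM. ELF3 encodes an epithelial transcription factor and SPINT1 a protease inhibitor of epithelial surfaces. Their log2 fold changes were -0.28 and -1.59, and SPINT1 had an FPKM of at most 0.30 in any library.

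The mesenchymal markers that were called fell too. ACTA2, which encodes smooth muscle actin, fell by 0.91 on the log2 scale, FN1 (fibronectin) by 0.79, ITGA5 (the fibronectin receptor subunit) by 0.52 and NT5E (the surface enzyme CD73) by 0.37. CDH2, which encodes N-cadherin, had an FPKM of 4.16, 4.08 and 3.80 with CELF6 and 4.45, 3.59 and 3.38 without, a difference of 0.050 on the log2 scale (edgeR adjusted p = 0.758). The 4 calls among 23 genes (17.4%), all lower, stood beside 11.5% of all genes called as lower and 18.0% called in either direction. They became 5 lower and 2 higher without Control replicate 1, and neither VIM nor CDH2 was called.

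**Figure D4:**
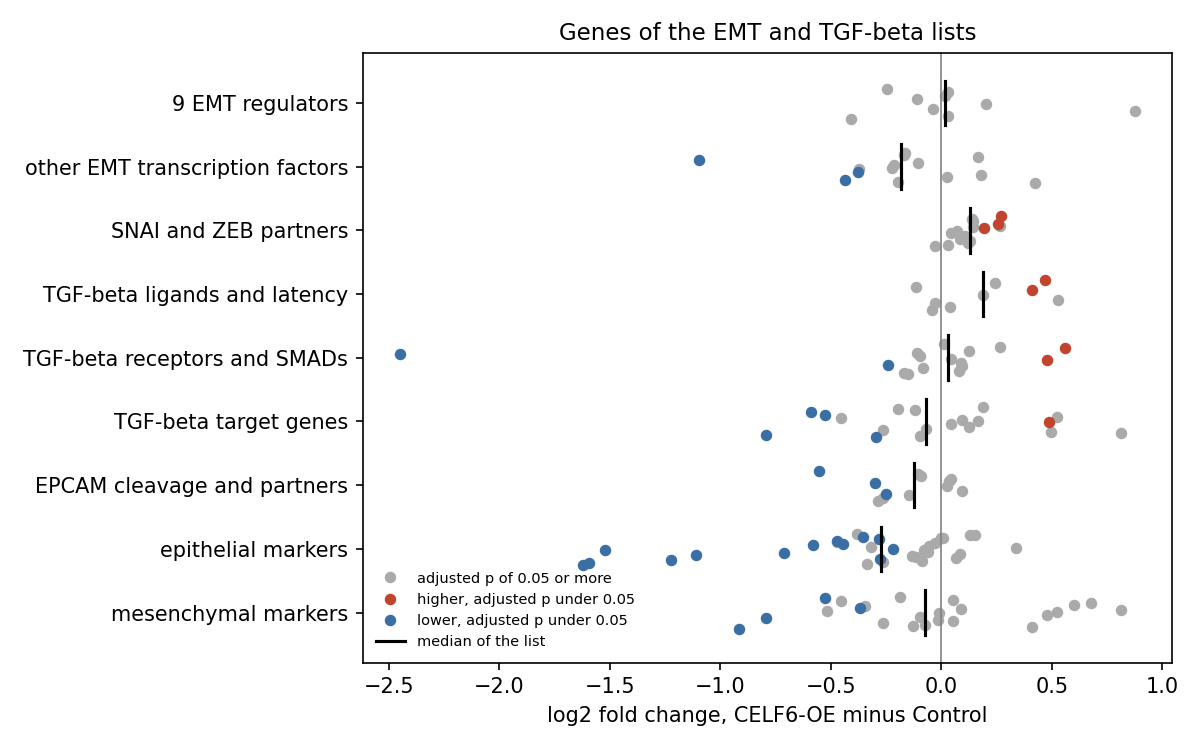
Log2 fold change (horizontal axis, CELF6-OE minus Control) of each gene tested in 9 lists (vertical axis), where a point is a gene, red and blue mark an adjusted p under 0.05, and black bars give the list's median. The 9 EMT regulators hold no called gene, and 13 of the 32 epithelial markers are called as lower.

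Around the ligands, the TGF-beta genes were called in both directions. Of 9 further ligand and latency genes tested, THBS1 (thrombospondin, an activator of latent TGF-beta) and ITGAV (an integrin subunit that binds the latent complex) were higher, by 0.47 and 0.41 on the log2 scale. These 2 calls were 0 without CELF6-OE replicate 2 or without Control replicate 2, and 1 without CELF6-OE replicate 1 or 3. Of 16 receptor and SMAD genes, SMURF2 (a ubiquitin ligase of the pathway) and the type I receptor gene TGFBR1 were higher, by 0.56 and 0.48. ACVRL1, which encodes another type I receptor, had an FPKM of 0.08, 0.08 and 0.13 with CELF6 and 0.55, 0.47 and 0.51 without, and its log2 fold change was -2.45. TGIF1, a corepressor of SMADs, fell by 0.24. SMAD3, which carries the signal to the nucleus, had a log2 fold change of 0.12 and an edgeR adjusted p of 0.232. The 4 calls among the receptor and SMAD genes were 2 without CELF6-OE replicate 1, CELF6-OE replicate 2 or Control replicate 2.

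Among 19 genes known to be induced by TGF-beta, 4 were lower and 1 was higher. BHLHE40 fell by 0.30 (edgeR adjusted p = 0.00939), and FN1 and ITGA5, given above, are on this list as well. CTGF, a matricellular protein gene, was higher by 0.49, with an FPKM of 9.83 to 11.4 with CELF6 and 6.90 to 7.70 without (edgeR adjusted p = 0.00268). Without Control replicate 1 the 5 calls of this list became 4 higher and 6 lower. The shares called, 22.2% of the ligand and latency genes, 25% of the receptor and SMAD genes and 26.3% of the induced genes, stand beside 18.0% of all genes, and with so few genes nothing is read from the difference.

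The list of other transcription factors of the transition also held partners and inhibitors of TWIST1. Of its 14 genes tested, 3 were lower, among them the inhibitor genes ID4 and ID3, which fell by 1.10 and 0.44 on the log2 scale. ID proteins bind E proteins and keep them from DNA. Without Control replicate 3 this list had 5 lower and 1 higher. Of 15 genes for partners of SNAI and ZEB proteins, HDAC2 and KDM1A, which encode chromatin enzymes of repressor complexes, and GSK3B, the kinase that marks Snail for degradation, were higher by 0.27, 0.19 and 0.25, with edgeR adjusted p from 0.0461 to 0.0493. These 3 calls were 0 without any 1 of the CELF6-OE libraries or without Control replicate 2, 1 without Control replicate 3, and 2 in DESeq2 and limma-voom. Of 12 genes for proteases and partners of EPCAM, 3 were lower, among them the γ-secretase subunit genes NCSTN and APH1A, which fell by 0.55 and 0.25. These 3 calls were 1 without CELF6-OE replicate 1, CELF6-OE replicate 2 or Control replicate 2. In each of these 3 lists all calls went in 1 direction. The share called was 21.4% of the transcription factors and 25% of the EPCAM genes, all lower, against 11.5% of all genes. For SNAI and ZEB partners it was 20%, all higher, against 6.47%. In either direction 18.0% of all genes were called, and with so few genes nothing is read from these differences.

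The patterns most like those of SNAI2 and TGFB2, the 2 regulators with the smallest p, were sought over the 6 libraries in log2 CPM. For SNAI2 the highest Pearson correlations were with ABCC4 (r = 0.995), CPEB4 (r = 0.992) and AC083899.3 (r = 0.991). For TGFB2 they were with FAM204A (r = 0.996), BMI1 (r = 0.994) and AMMECR1 (r = 0.994). Over 6 points such values are common, and 480 genes for SNAI2 and 715 for TGFB2 exceeded 0.9 among 15846 compared. All points share libraries and scaling, so these correlations are a description. None of these 6 genes was called between the groups.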

How the data were processed

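RNA of 3 CELF6-OE and 3 Control A549 cultures was measured by RNA-seq, with groups and replicate numbers taken from the sample titles. According to the methods, reads were trimmed with FASTX-Toolkit and aligned to GRCh38 with TopHat2, and uniquely located reads were counted per gene. The authors deposited these read counts without normalization and FPKM values rounded to 2 decimals. How and with which annotation reads were counted is not given in the sources used here.

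Counts of the 15847 genes kept by filterByExpr (minimum count 10) were scaled with TMM and tested in edgeR 4.0.16 (R 4.3.3) with the quasi-likelihood test and Benjamini-Hochberg adjustment over all of them. Without this filter the prior degrees of freedom were infinite, so the spread of a single gene did not enter its p, and that fit was an alternative. Standard errors and 95% intervals came from the same test (prior degrees of freedom 7.15). FPKM gave levels, SDs and exact permutation tests. Other alternatives used DESeq2 1.42.0, limma 3.58.1, other scalings and filters, the replicate number as a block, and each library left out in turn. On simulated counts of this comparison, 67.3% of genes changed 1.5-fold and 85.9% of those changed 2-fold were recovered among 15675 genes, with 10 unchanged genes called. The 200 changed genes were drawn from all genes kept by the filter, with the same spread in both groups. These rates thus do not describe genes with as few counts as SNAI2 or TWIST1. Replicates of a group differed beyond sampling noise (chi-square per degree of freedom of 7.67 or more).

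The 9 genes, the lists and the filter on low counts were chosen with earlier results of these data known. The text names the 9 genes, at most 3 higher and 3 lower genes of a list by the smallest p (all where 5 or fewer were called), and the 3 genes most like the 2 regulators with the smallest p. The list genes CDKN2B, GRHL2, COL1A2, TEK, CLDN5, CD3E, CD2, CD53, TGFB2-OT1 and EPCAM-DT were not analysed here. Some genes of the lists that the rule would name are not reported here.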

Additional observations from a re-analysis of the deposited data

How the results depend on the processing

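The 9 genes had 170 values over 19 alternatives, and 165 of them stayed on the same side of an adjusted p of 0.05. The count of called regulators, 0, became 1 (SNAI2, higher) without a filter on low counts and 1 (SNAI2) with edgeR's likelihood ratio test, with adjusted p of 0.00719 and 0.0409. With 1 library left out it was between 0 and 2, the 2 being SNAI2 and TGFB2 without Control replicate 1, and EPCAM was the 1 call without Control replicate 3. Such fits assume that the group left with 2 libraries varies like the other. The count of regulators with no overlap between the groups was 0 in FPKM and 1 in TMM-scaled CPM, an alternative chosen after seeing the data. Over the lists, 35 genes were called in all and between 18 and 47 with 1 library left out. Over all genes, 2845 were called and between 1319 and 4276 with 1 library left out, the fewest without Control replicate 2 and the most without Control replicate 1. Other scalings (RLE, upper quartile, library size) turned no sign among the 9. SNAI1, SNAI2, ZEB2, EPCAM and TGFB2 kept their sign in all 19, and ZEB1 in 14, TWIST1 in 14 of 18, VIM in 17 and TGFB1 in 18. TWIST1 did not pass a filter of 1 CPM in 3 libraries. With the replicate block 0 regulators were called and 2290 genes in all. The 3 calls among SNAI and ZEB partners then became 0, and the 5 among A549 markers 3. The values showed no sign that replicate numbers pair the samples, since deviations of same-numbered libraries correlated at -0.084, -0.059 and -0.11. Whether same-numbered cultures were handled together is not stated, and these correlations cannot settle it. TWIST1, SNAI2, EPCAM and ZEB2 had means of 23 to 91 counts. Their Control libraries varied by 28.2%, 56.0%, 29.6% and 30.1%, against 20.9%, 19.4%, 9.79% and 9.93% from counting alone. The cause of each change was not tested.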
